A study of Mus musculus with 48 samples.

Results

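The comparison described here is that of hippocampal gene expression in CIE and control mice killed at 0 h, directly after the last of 4 cycles of chronic intermittent ethanol vapor (CIE). The members were the 12 arrays whose titles gave the 0 h harvest, 6 from CIE and 6 from control (Ctrl) mice, of 48 arrays in the series, and all probe sets on them. Each array held RNA of 1 adult male C57BL/6J mouse, carrying its own number, so the spread within a group is that between animals. CIE mice were kept in ethanol vapor (10 to 13 mg per l of air) for 16 h a day on 4 days of a cycle and were then left for 7 days without ethanol, except that the 0 h mice were killed when the last session ended. Every cycle opened with an intraperitoneal injection of 1.6 g/kg ethanol in CIE mice or saline in Ctrl mice, and both groups also received pyrazole at 1 mmol/kg, an inhibitor of alcohol dehydrogenase. Ctrl mice breathed air in like chambers, so the comparison is of ethanol on top of pyrazole, handling and injection, and CIE mice came to harvest without a period free of ethanol.

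Several hormonal and immune systems are known to respond to ethanol and to its removal. Glucocorticoids, the adrenal stress hormones, cross into the brain and bind the glucocorticoid receptor, which sits on DNA at response elements and turns on genes for lipid handling, for the arrest of growth and for the damping of inflammation. The circadian clock runs in hippocampal cells as a loop in which the CLOCK and BMAL1 proteins bind E-boxes and drive their own repressors, and glucocorticoids also reach it through Per1. Interferons, made by immune and glial cells, act through STAT and IRF factors at interferon-stimulated response elements and raise the genes of antigen presentation and of antiviral defence, most strongly in microglia, the resident macrophages of the brain.

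The promoters of 6 genes that were higher in CIE mice are printed here as examples of promoters with an element of these systems. They are taken from RefSeq (GRCm38.p6), from 250 bases before to 10 bases after the annotated start, 5′ to 3′ on the gene's own strand, with the matched letters in capitals. Ciart and Klf15 are shown for the E-box CACGTG, Irgm1 and Irgm2 for the core of the interferon-stimulated response element (GAAA, any 2 bases, GAAA), and Txnip and Map3k6 for that of the glucocorticoid response element (GNACA, any 3 bases, TGTNC). N stands for any base, both strands were searched, and the 2 matches in Irgm1 overlap.
Ciart, chr3:95882219-95882478, minus strand: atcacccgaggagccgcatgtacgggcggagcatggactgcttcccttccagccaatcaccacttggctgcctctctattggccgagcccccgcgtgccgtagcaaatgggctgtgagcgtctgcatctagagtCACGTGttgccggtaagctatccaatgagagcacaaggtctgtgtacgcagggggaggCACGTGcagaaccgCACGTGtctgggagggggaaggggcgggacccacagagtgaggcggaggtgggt
Klf15, chr6:90462326-90462585, plus strand: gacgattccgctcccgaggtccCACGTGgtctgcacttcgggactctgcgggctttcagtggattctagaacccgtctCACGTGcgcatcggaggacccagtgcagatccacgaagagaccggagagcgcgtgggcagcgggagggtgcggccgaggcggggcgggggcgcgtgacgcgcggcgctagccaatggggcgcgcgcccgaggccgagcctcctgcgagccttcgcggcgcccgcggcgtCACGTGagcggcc
Irgm1, chr11:48871411-48871670, minus strand: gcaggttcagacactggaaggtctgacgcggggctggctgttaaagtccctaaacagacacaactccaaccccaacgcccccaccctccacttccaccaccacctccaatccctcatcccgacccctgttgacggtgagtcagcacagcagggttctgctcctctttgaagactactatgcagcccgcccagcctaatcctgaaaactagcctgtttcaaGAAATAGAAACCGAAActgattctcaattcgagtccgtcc
Irgm2, chr11:58214727-58214986, plus strand: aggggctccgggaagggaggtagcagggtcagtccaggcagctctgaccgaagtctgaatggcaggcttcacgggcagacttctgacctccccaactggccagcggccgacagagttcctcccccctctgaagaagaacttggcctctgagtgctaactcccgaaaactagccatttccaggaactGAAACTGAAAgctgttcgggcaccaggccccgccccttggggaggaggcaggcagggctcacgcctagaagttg
Txnip, chr3:96557707-96557966, plus strand: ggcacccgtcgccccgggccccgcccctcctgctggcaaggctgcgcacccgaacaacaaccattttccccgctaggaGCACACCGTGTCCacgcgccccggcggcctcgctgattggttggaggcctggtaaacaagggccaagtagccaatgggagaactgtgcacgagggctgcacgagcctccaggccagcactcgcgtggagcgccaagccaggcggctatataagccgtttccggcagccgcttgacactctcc
Map3k6, chr4:133240568-133240827, plus strand: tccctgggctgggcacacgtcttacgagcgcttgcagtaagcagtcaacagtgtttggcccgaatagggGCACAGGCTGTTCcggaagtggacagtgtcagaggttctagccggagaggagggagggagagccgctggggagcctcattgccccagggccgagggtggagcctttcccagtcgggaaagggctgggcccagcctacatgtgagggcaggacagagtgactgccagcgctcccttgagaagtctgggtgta

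The 12 arrays were alike in scale, with medians between 6.607 and 6.627 (log2 expression, the unit of every level below) and correlations between 0.977 and 0.998. Markers of granule cells, pyramidal cells, interneurons, astrocytes, oligodendrocytes and microglia were all present, as the labelled tissue calls for. Mean levels of the granule cell markers lay between 9.19 and 10.83 in CIE and between 9.04 and 10.87 in Ctrl mice. Overlapping ranges were also found for interneurons (10.58 to 10.91 and 10.45 to 11.17) and oligodendrocytes (9.97 to 10.26 and 9.76 to 10.63). Markers of CA1 (9.64 to 10.87 and 9.16 to 10.63), of CA3 and CA2 (9.21 to 9.78 and 8.78 to 9.76) and of blood (4.65 to 5.18 and 4.99 to 5.51) overlapped too, with median differences of 0.48, 0.35 and −0.31 that held no call, and their part in the results was not tested. Some arrays stood apart before any comparison was made. CIE mouse 57 and Ctrl mouse 38 had the lowest granule cell means (9.19 and 9.04, beside 9.89 or more in the other mice). Both were also the highest of their groups for CA1 (10.87 and 10.63), and the part of this in the results was not tested. Ctrl mouse 2, and to a lesser degree Ctrl mice 12 and 20, held RNA of genes that mark thalamus and midbrain (mean level of the thalamic markers 7.31, 6.59 and 6.49, beside 5.54 to 5.88 in the other Ctrl and 5.65 to 6.19 in CIE mice). Exactly equal values shared between arrays placed 47 arrays of the series in 6 sets, each with at most 1 mouse of a group, and every difference was also fitted with the set as a block. The array of Ctrl mouse 2 was in no set and not in that fit, which therefore differs from the main one both in the block and in the mice used. Its values were deposited with 6 decimals and those of the others with up to 9, so its lack of equal values does not set it apart.

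At a false discovery rate (FDR) of 0.01 in limma, 299 genes differed between CIE and Ctrl mice at 0 h, which is 1.64% of the 18193 tested with 1 probe set each. Of these, 231 (1.27% of all genes) were higher and 68 (0.374%) were lower in CIE mice. These shares are the background for the counts of every list below. An unadjusted limma p under 0.05 at 0 h was found for 8773 of all 45037 probe sets. That is the background for the counts of unadjusted p below. The differences were mostly small, with a median of 0.39 on the log2 scale among higher and 0.43 among lower genes, beside a median of 0.042 over all genes. Among called genes, differences of more than 2-fold were limited to 5 higher genes (Plin4, Irgm2, Cd74, Ccl5 and H2-K1) and 6 lower genes (Shox2, Fos, Gjc3, Otx2, Zbtb7a and Zbed6). CIE and Ctrl mice did not overlap at all for 288 genes (1.58% of those tested), 234 higher (1.29%) and 54 lower (0.297%) in CIE mice, and for 119 of the 231 higher and 31 of the 68 lower genes. With the array sets as a block every called gene kept its direction, but 57 of the higher and 14 of the lower genes kept an adjusted p of 0.01 or less. With the spread taken from the 12 arrays of 0 h alone, 21 genes were called. With the mean over a gene's probe sets in place of 1 probe set, 339 genes were called, 199 higher and 140 lower. Without Ctrl mouse 2 the count over all probe sets went from 865 (1.92%) to 354, without CIE mouse 57 to 261, and with Ctrl mice 2, 12 and 20 left out together it was 188, of which 84 were the probe set of a gene (65 higher and 19 lower). As the tissue was measured whole, fewer cells of a type and less RNA per cell cannot be told apart in any of the differences below.

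**Figure D1:**
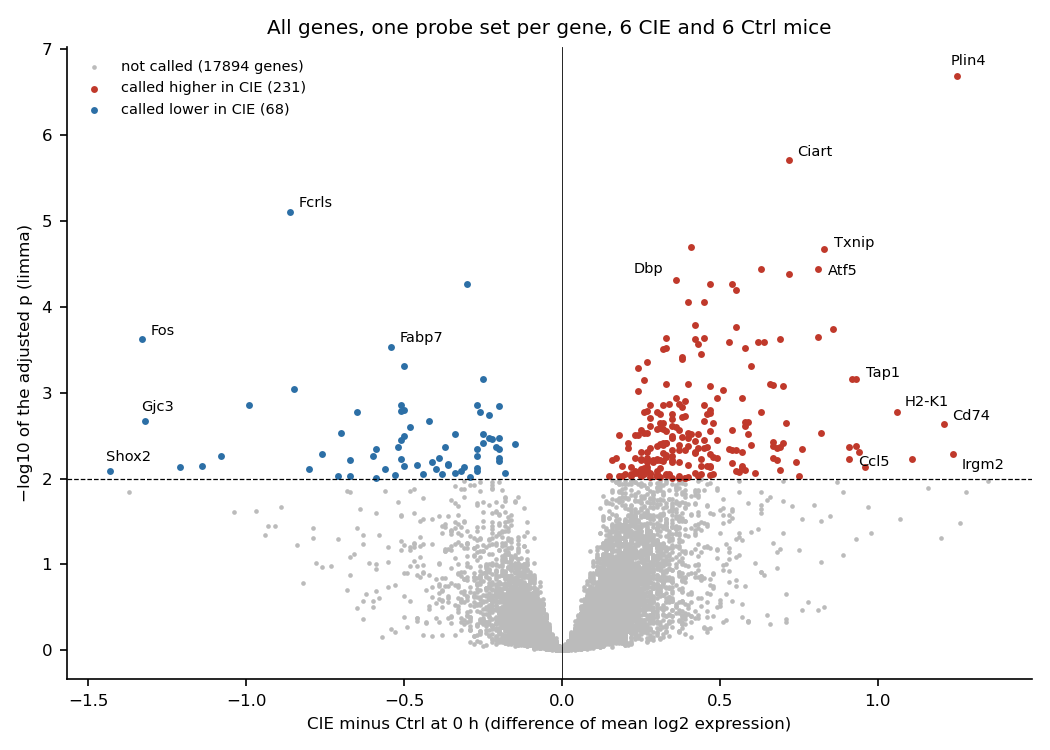
Each point is 1 of 18193 genes, with the CIE minus Ctrl difference of mean log2 expression at 0 h on the horizontal axis and −log10 of limma's adjusted p on the vertical axis. The dashed line marks the FDR of 0.01, above which 231 genes lie to the right (higher in CIE) and 68 to the left.

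Genes driven by glucocorticoids were among those called higher. Of 32 measured, 11 were called higher (34.4%, beside 1.27% of all genes) and 0 lower, the median difference of the list was 0.30, and 29 members had a difference above 0. This list, like the others, was written with earlier results of these data known, so its share is a description and no test. The mean level of the list was 9.83, 9.95 and 10.11 in the lowest, median and highest CIE mouse and 9.54, 9.64 and 9.70 in Ctrl mice, with no overlap. Plin4, a coat protein of lipid droplets, lay at 6.82, 7.17 and 7.76 in CIE mice and at 5.61, 6.12 and 6.22 in Ctrl mice (lowest, median and highest mouse, the order used throughout). Every CIE mouse was above every Ctrl mouse, and no called gene had a larger rise (log2 difference 1.25 ± 0.14 (SE), adjusted p = 2.04e-07 in limma, n = 6 and 6). Cdkn1a, the p21 inhibitor of cell division, rose by 0.70 ± 0.13 (adjusted p = 0.000838), from 7.06, 7.18 and 7.41 in Ctrl to 7.46, 7.84 and 8.38 in CIE mice, again without overlap. It was the 1 higher gene among 18 of cell division, and also among 18 of the p53 response.

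Among the called glucocorticoid targets were also transcription factors and a kinase. Klf15, a zinc finger factor that switches fuel genes, was 9.00, 9.18 and 9.30 in CIE and 8.51, 8.77 and 9.02 in Ctrl mice, a difference of 0.42 ± 0.07 (adjusted p = 0.000237) with a narrow overlap of the groups. Map3k6, a stress kinase, lay between 6.51 and 7.05 in CIE and between 6.05 and 6.50 in Ctrl mice (0.57 ± 0.11, adjusted p = 0.00115), just without overlap. Hif3a, an inhibitory member of the hypoxia-inducible factors, rose by 0.40 ± 0.09 (0.00336), Per1 by 0.35 ± 0.08 (0.00548) and the metal-binding protein gene Mt2 by 0.28 ± 0.06 (0.00436), and these 3 calls ended in the block fit and without single mice. Sgk1, a kinase that carries glucocorticoid signals, just missed the threshold at 0.38 ± 0.09 (adjusted p = 0.0101), although its 6 CIE mice (11.56 to 11.91) all lay above the 6 Ctrl mice (11.14 to 11.54). Fkbp5, a chaperone that holds the receptor in check, also separated the groups (10.29 to 10.60 and 9.88 to 10.28) but had a difference of 0.29 ± 0.13 (0.176). Genes of the receptors and of corticotropin-releasing hormone signalling, 14 in all, had 0 calls in limma (3 with an unadjusted p under 0.05) and a median of 0.04. The glucocorticoid receptor gene Nr3c1 itself had a difference of −0.08 ± 0.06 (0.486), and the mineralocorticoid receptor gene Nr3c2 one of −0.01 ± 0.13 (0.977). Of the 11 glucocorticoid targets, 6 were called in the block fit and 4 without Ctrl mice 2, 12 and 20, with medians of 0.30 in both, and 7 without CIE mouse 57.

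**Figure D2:**
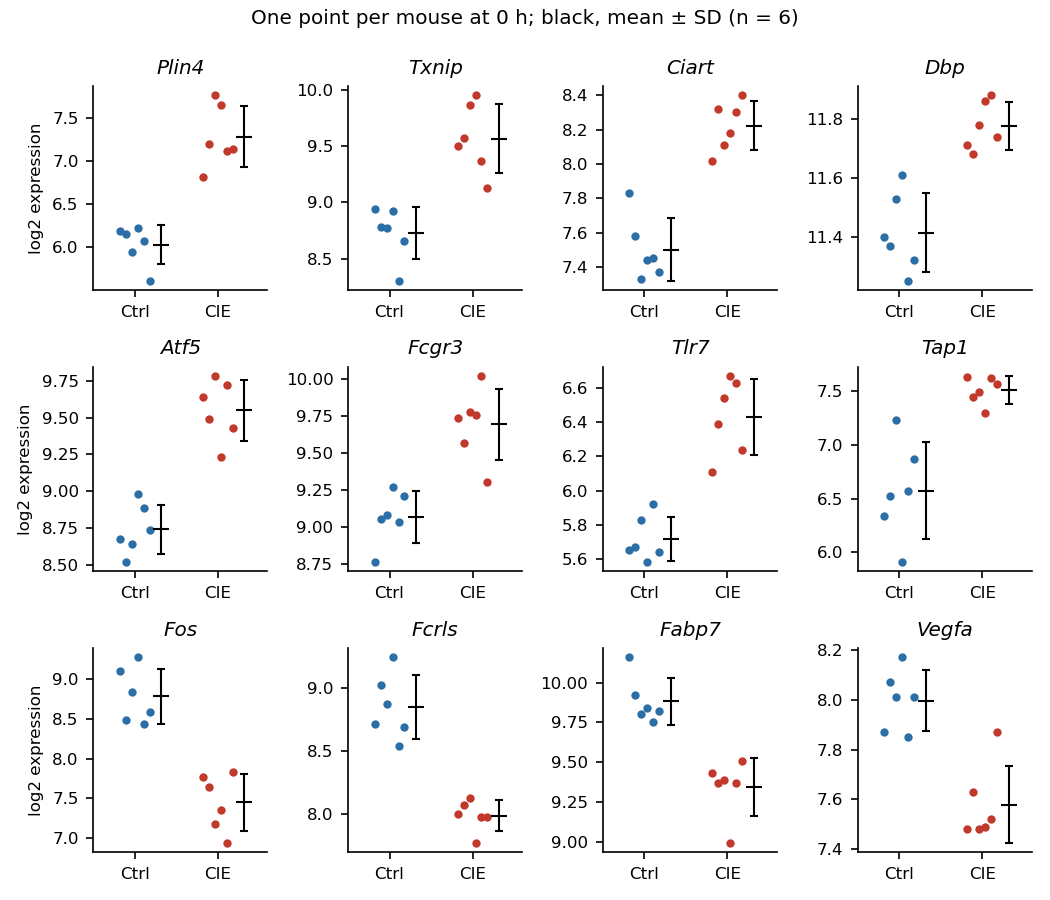
Log2 expression of 12 genes at 0 h, with 1 point per mouse (6 Ctrl, blue, and 6 CIE, red) and the mean ± SD in black, each panel on its own axis. Ctrl and CIE mice are fully apart for the genes of glucocorticoid, clock and microglial lists shown, and only Vegfa has a CIE mouse (7.87) within the Ctrl range.

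Genes of fuel use and fat handling were also called higher, and some of them are glucocorticoid targets too. Of 31 genes of insulin and FoxO signalling and fuel choice, 3 were higher (Txnip, Angptl4 and Klf15), and of 20 genes of lipid droplets and fat oxidation, 3 were higher (Plin4, Pnpla2 and Acsl3), with list medians of 0.14 and 0.13 and no lower member in either. The shares called were 9.68% and 15.0%, beside 1.27% of all genes called higher. Txnip, an arrestin-like protein that curbs glucose uptake and binds thioredoxin, was 9.13, 9.54 and 9.95 in CIE and 8.30, 8.78 and 8.94 in Ctrl mice. No Ctrl mouse reached the lowest CIE mouse, and the difference was 0.83 ± 0.12 (adjusted p = 2.1e-05). Arrdc4, the gene most like Txnip in the arrestin family, rose by 0.82 ± 0.17 (0.00298), with CIE mice between 7.58 and 8.59 and Ctrl mice between 7.01 and 7.73, though with the array sets as a block it did not pass (0.0288). Angptl4, a secreted inhibitor of lipoprotein lipase, differed by 0.59 ± 0.12 (0.00222), Pnpla2, the lipase that opens triglyceride stores, by 0.42 ± 0.09 (0.00505) and Acsl3, which activates fatty acids, by 0.19 ± 0.05 (0.00933). Acacb, which makes the malonyl-CoA that holds back fat oxidation, was chosen after its values were seen, and it rose by 0.58 ± 0.10 (0.000301) from 5.42, 5.67 and 6.04 to 5.87, 6.30 and 6.52. The fat oxidation gene Cpt1a (0.23 ± 0.07, 0.0448) and the glucose transporter gene Slc2a1 (0.33 ± 0.10, 0.0378) did not pass, nor did Pdk4 (0.42 ± 0.16, 0.101). Xdh, which makes xanthine oxidase, was among the larger rises of all genes (0.92 ± 0.17, 0.000695), at 7.82, 8.11 and 8.30 in CIE mice and 6.85, 7.10 and 7.64 in Ctrl mice.

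Enzymes that remove ethanol and acetaldehyde had no called gene among 16 measured in limma, beside 1.64% of all genes. Of the 16, 3 had an unadjusted p under 0.05, beside 8773 of all 45037 probe sets. The class III alcohol dehydrogenase gene Adh5 lay between 11.48 and 11.72 in CIE and between 11.56 and 11.74 in Ctrl mice (−0.09 ± 0.04, adjusted p = 0.209). The mitochondrial aldehyde dehydrogenase gene Aldh2 differed by 0.10 ± 0.08 (0.517).

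Ciart, Dbp, Nr1d1 and Per1 were the clock genes called higher. Among 22 clock genes 4 were higher (18.2%, beside 1.27% of all genes) and 0 lower, at a median of 0.10. Ciart, a repressor of CLOCK and BMAL1, lay at 8.02, 8.24 and 8.40 in CIE and 7.33, 7.45 and 7.83 in Ctrl mice, and Dbp, a transcription factor under direct E-box control, at 11.68, 11.76 and 11.88 and at 11.25, 11.38 and 11.61. In both genes the groups were apart. The repressor genes Nr1d1 (7.27 to 7.57 in CIE and 6.77 to 7.19 in Ctrl mice) and Per1 (9.31 to 9.69 and 9.00 to 9.42) made up the rest, the latter with some overlap. The deubiquitinase gene Usp2, another clock output, had no overlap but did not pass (0.35 ± 0.10, adjusted p = 0.0237). Arntl, which encodes BMAL1, had a difference of −0.16 ± 0.07 (0.222), Clock one of 0.06 ± 0.05 (0.613) and the repressor gene Nfil3 one of −0.31 ± 0.13 (0.146). Of the 4 calls, 3 were kept in the block fit.

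Genes set off by neuronal activity were, with the exception of Fos, not called. Fos, a subunit of the AP-1 factor and a marker of recently active neurons, was 6.94, 7.49 and 7.83 in CIE and 8.43, 8.71 and 9.27 in Ctrl mice, so that the highest CIE mouse stood below the lowest Ctrl mouse. Of 28 other activity genes 0 were called by limma, 5 had an unadjusted p under 0.05, and the median was −0.10. Arc, which acts at synapses, spanned 8.05 to 8.99 in CIE and 8.69 to 9.78 in Ctrl mice, and Egr1, a zinc finger factor, 10.70 to 11.69 and 11.12 to 12.10 (−0.35 ± 0.22, adjusted p = 0.398). The groups overlapped in both. Bdnf, the neurotrophin gene, had a difference of −0.29 ± 0.25 (0.571) and Fosb, the closest relative of Fos, one of 0.23 ± 0.12 (0.299).

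Genes of MHC class I antigen presentation were higher at several steps, from the cutting of peptides to the surface complex. Of 13 genes measured, 6 were higher (46.2%, beside 1.27% of all genes) and 0 lower, with a median of 0.54. CIE mice lay above Ctrl mice without overlap for 5 members, and for 1.29% of all genes. Psmb9, a subunit of the immunoproteasome that cuts peptides for class I, was 8.02, 8.43 and 8.87 in CIE and 7.22, 7.49 and 8.23 in Ctrl mice (0.91 ± 0.20, adjusted p = 0.00432), with overlap. Psmb8, its partner subunit, showed a like difference that missed the threshold (0.87 ± 0.22, 0.0111). The other 2 immunoproteasome genes measured, Psmb10 and Psme1, had differences of 0.10 and 0.04, and Psmb9 did not pass in the block fit (0.0325). Tap1, which pumps peptides into the endoplasmic reticulum, was even among CIE mice (7.29 to 7.63) and spread among Ctrl mice (5.91 to 7.23). The light chain gene B2m was 12.53, 12.67 and 12.88 in CIE and 11.54, 12.05 and 12.60 in Ctrl mice (0.60 ± 0.13, 0.00409). Of the heavy chains, H2-K1 spanned 11.02 to 11.67 and 9.52 to 11.13 and H2-D1 7.09 to 7.91 and 6.04 to 7.41 (0.93 ± 0.20, 0.00412), and the groups overlapped in both. Probes for such heavy chain genes can bind RNA of their near-identical relatives. Nlrc5, which activates the class I promoters, was apart between groups (7.08 to 7.67 and 5.06 to 7.03), yet its spread kept it from passing (1.07 ± 0.31, 0.0298). The class I list had 3 calls in the block fit and 6 without Ctrl mice 2, 12 and 20. Cd274, the inhibitory surface ligand PD-L1 and an interferon target, rose by 0.91 ± 0.21 (0.00599), from 5.96, 6.34 and 6.88 to 6.98, 7.35 and 7.59.

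MHC class II genes and the interferon-inducible GTPases had list medians above that of class I. Of these lists 28.6% and 30.0% were called higher, beside 1.27% of all genes. Of 7 class II genes, Cd74, the invariant chain, and Ctss, the protease that trims it, were higher, with a list median of 0.97. Cd74 was 8.22, 8.33 and 9.07 in CIE and 6.65, 7.17 and 8.50 in Ctrl mice. The chain genes H2-Eb1 (1.35 ± 0.34, adjusted p = 0.0107), H2-Ab1 (1.26 ± 0.37, 0.0331) and H2-Aa (0.97 ± 0.27, 0.0213) had differences of the same size and did not pass. All 10 GTPases that guard against intracellular microbes had differences between 0.63 and 1.28, but 3 were called (Irgm1, Irgm2 and Ifi47). Irgm2 was 8.28, 8.76 and 9.12 in CIE and 6.58, 7.61 and 8.37 in Ctrl mice (1.24 ± 0.28, 0.0052), Irgm1 9.07, 9.48 and 9.68 and 8.08, 8.17 and 9.42 (0.96 ± 0.22, 0.00729). Ctrl mouse 20 reached the CIE range in these genes. Its mean level was 8.45 over the class II list and 8.42 over the GTPases, where the other Ctrl mice lay between 6.81 and 7.87 and between 6.93 and 7.90, and CIE mice between 8.08 and 8.68 and between 8.23 and 9.02. Without Ctrl mouse 20, 5 of the 7 class II genes were called, without Ctrl mouse 2 or CIE mouse 67 1 was, and in the block fit 0 were. The 3 GTPase calls fell to 0 when any 1 of 6 other mice (Ctrl 2 and 38, CIE 43, 57, 67 and 72) was omitted, and with the array sets as a block.

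**Figure D3:**
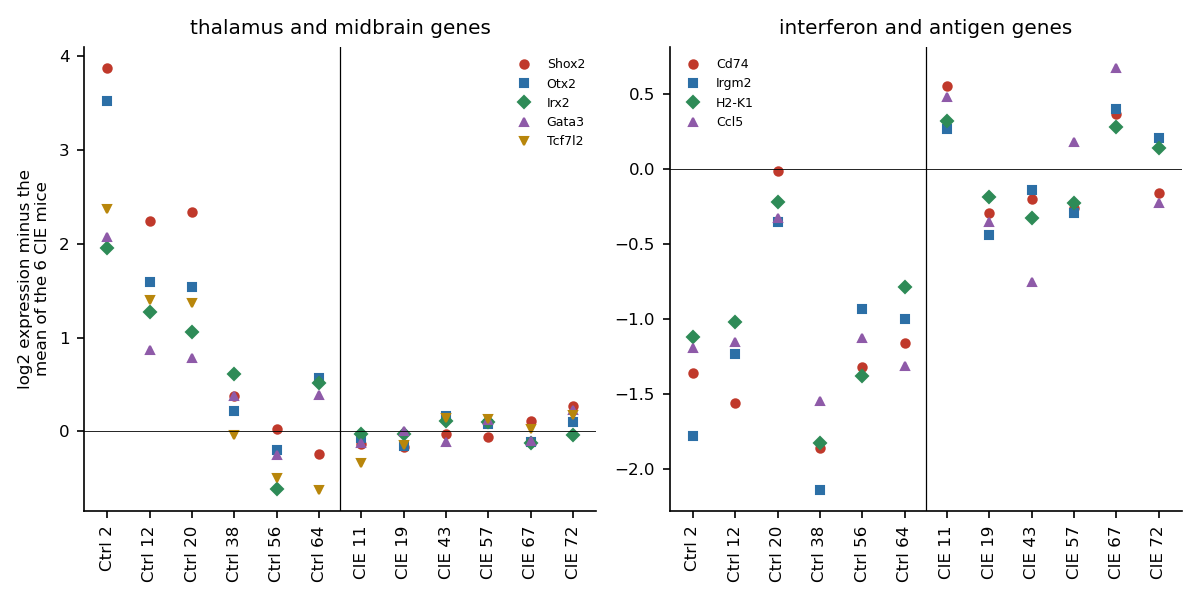
Log2 expression of single genes in each of the 12 mice, relative to the mean of the 6 CIE mice (horizontal line at 0), with Ctrl mice to the left and CIE mice to the right of the vertical line. Ctrl mice 2, 12 and 20 are the highest mice for the thalamus and midbrain genes (left), while Ctrl mouse 20 is the only Ctrl mouse that falls among the CIE mice for the interferon and antigen genes (right).

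Antiviral genes had differences in 1 direction. All 35 measured had a difference above 0, with a median of 0.38, and 7 were called higher (Rtp4, Lgals3bp, Parp14, Rsad2, Parp9, Trim30a and Trim21). The share called was 20.0%, beside 1.27% of all genes called higher. List means were 7.34, 7.41 and 7.52 in CIE mice and 6.89, 6.93 and 7.34 in Ctrl mice, the highest again being Ctrl mouse 20, beside 6.89 to 6.95 in the other Ctrl mice. Parp14, which tags proteins with ADP-ribose, was 6.69 to 6.98 in CIE and 5.91 to 6.36 in Ctrl mice, and Rsad2, the antiviral enzyme viperin, 8.46 to 8.69 and 7.67 to 8.13 (0.67 ± 0.15, adjusted p = 0.00578), both without overlap. Ifit1, which binds viral RNA, separated the groups too (7.20 to 7.62 and 6.11 to 7.03), with a difference of 0.89 ± 0.23 that did not pass (0.0144). The number called was 10 without Ctrl mouse 20, 1 without Ctrl mouse 2 or CIE mouse 57, 2 without Ctrl mouse 56 or CIE mouse 43, 3 or 4 without Ctrl mice 12, 38 or 64 or CIE mice 19 or 72, and 0 in the block fit. Of 17 interferon receptors and signalling genes, Ifnar2 (0.27 ± 0.05, 0.00162) and Ifngr1 (0.27 ± 0.06, 0.00603), receptor chains for type I and type II interferon, were higher. Trim34a (0.67 ± 0.15, 0.00412), Trim12c (0.55 ± 0.12, 0.0047) and Trim30d (0.68 ± 0.16, 0.00612), further antiviral Trim genes chosen after their values were seen, were also higher and without overlap, with the limit that some Trim genes are near copies of each other.

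Single genes of microglia and macrophages were called in several lists. Calls were made for 2 of 20 genes of reactive microglia (both higher, 1 in the block fit), 1 of 16 of homeostatic microglia (lower), 3 of 8 Fc receptor genes (2 higher), and by limma for 0 of 21 of autophagy and lysosomes (4 with an unadjusted p under 0.05). Of all genes, 1.64% were called. Tlr7, the endosomal sensor of single-stranded RNA, was 6.11, 6.47 and 6.67 in CIE and 5.58, 5.66 and 5.92 in Ctrl mice (0.72 ± 0.10, adjusted p = 4.15e-05), and was the single gene called among 19 of Toll-like receptor and NF-kappaB signalling. Gpr65, an acid-sensing receptor, was 4.03, 4.14 and 4.45 against 3.54, 3.70 and 3.95 (0.47 ± 0.07, 5.48e-05), and Slc11a1, a metal transporter of phagosomes, 7.31, 7.37 and 7.56 against 6.62, 6.89 and 7.01 (0.55 ± 0.09, 0.000173). All 3 separated the groups completely and kept their calls in the block fit and without any single mouse, though Gpr65 lay at the dim end of the array. The activating Fc receptor gene Fcgr3 ranged from 9.30 to 10.02 and from 8.76 to 9.27, and Ms4a6b, a membrane protein of reactive microglia, from 6.73 to 7.18 and from 6.18 to 6.50. Lair1, an inhibitory collagen receptor, rose by 0.47 ± 0.10 (0.00277) and Fcgr1, the high-affinity Fc receptor, by 0.57 ± 0.13 (0.00761). Genes chosen after their values were seen added Alox5ap of leukotriene synthesis (0.44 ± 0.08, 0.000355), the NADPH oxidase subunit Ncf1 (0.46 ± 0.09, 0.00176), the pore-forming protein Gsdmd (0.35 ± 0.07, 0.00177) and the nucleotide receptor P2ry6 (0.42 ± 0.09, 0.0049). Fcrls, a microglial receptor-like gene, went the other way (7.77 to 8.13 in CIE and 8.54 to 9.24 in Ctrl mice, no overlap). It was the lower call of both the homeostatic and the Fc receptor list. The markers P2ry12 (0.00 ± 0.10, 0.995), Cx3cr1 (−0.07 ± 0.12, 0.832) and Tmem119 (0.34 ± 0.09, 0.0173) were not called, and microglial marker means lay between 9.75 and 10.14 in CIE and between 9.63 and 10.02 in Ctrl mice.

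Few genes of signals that recruit immune cells were called, where 1.64% of all genes were. Of 24 cytokine and chemokine genes 1 was higher, Ccl5, a chemokine for T cells, at 6.56, 7.29 and 7.99 in CIE and 5.77, 6.14 and 6.99 in Ctrl mice (1.11 ± 0.25, adjusted p = 0.00598). Its groups overlapped, and its call ended when any 1 of 8 mice was omitted. Il1b (0.05 ± 0.08, 0.811) and Tnf (0.12 ± 0.09, 0.489) had small differences, and those of Il6 (0.28 ± 0.09, 0.0489) and Cxcl10 (0.57 ± 0.18, 0.0516) did not pass. Limma called 0 of 13 complement genes (4 with an unadjusted p under 0.05) and 0 of 12 genes of blood leukocytes and border macrophages (4 with an unadjusted p under 0.05).

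A few genes were called in lists of stress pathways. The shares called were 13.0% of heat shock, 8.7% of oxidative stress and 5.56% of unfolded protein response genes, beside 1.64% of all genes. Atf5, a transcription factor of the amino acid and mitochondrial stress response, was 9.23, 9.56 and 9.78 in CIE and 8.52, 8.71 and 8.98 in Ctrl mice, a clean separation (0.81 ± 0.12, adjusted p = 3.59e-05). It was the 1 call among 18 regulators of the unfolded protein response. Atf4, which acts upstream of it, had a difference of −0.07 ± 0.07 (0.639), and of 26 chaperones of the endoplasmic reticulum 0 were called by limma (5 with an unadjusted p under 0.05). Heat shock genes went both ways, with Hspa1a and Hspa1b higher, Chordc1, a co-chaperone of HSP90, lower by −0.23 ± 0.05 (0.0034), and a median of −0.06 over 23 genes. In CIE mice Hspa1b reached 10.73, 11.09 and 11.50, beside 9.76, 10.43 and 10.67 in Ctrl mice, with no overlap, and as Hspa1a is nearly the same sequence the 2 probe sets are not separate evidence. None of the 3 heat shock calls was kept in the block fit or without Ctrl mice 2, 12 and 20. Srxn1, which repairs peroxiredoxins, rose by 0.38 ± 0.07 (0.000408; 9.68 to 9.89 in CIE and 9.25 to 9.68 in Ctrl mice), 1 of 2 calls among 23 genes of oxidative stress, the other being Txnip. In CIE mice the amino acid transporter gene Slc7a5 was 9.34 to 9.76, above the 8.92 to 9.24 of Ctrl mice (0.40 ± 0.10, 0.00963).

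Single genes of astroglia and neural stem cells were lower, while the lists of these cells were not lower as a whole. Fabp7, a fatty acid carrier of radial glia and astrocytes that was chosen after its values were seen, was 8.99, 9.38 and 9.51 in CIE and 9.75, 9.83 and 10.16 in Ctrl mice, without overlap (−0.54 ± 0.09, adjusted p = 0.000291). Among 19 genes of Notch signalling and neural stem cells, the Notch effector Hes5 (−0.67 ± 0.16, 0.00927) and the stem cell factor Sox2 (−0.32 ± 0.08, 0.00822) were lower. Of the 19 genes, 9 had a difference above 0. Sox2 was 9.97 to 10.14 against 10.17 to 10.51, and Hes5 6.17 to 6.73 against 6.62 to 7.66, where the groups overlapped. Neither passed in the block fit (0.0413 for Hes5 and 0.0401 for Sox2), and omitting any 1 of 9 mice (Hes5) or 10 mice (Sox2) ended the call. Wif1, a secreted inhibitor of Wnt proteins, was 3.90, 4.22 and 4.50 in CIE and 4.51, 4.74 and 5.44 in Ctrl mice (−0.65 ± 0.13, 0.00168), at the dim end of the array. Vegfa, the vascular growth factor, was 7.48 to 7.87 against 7.85 to 8.17, the single lower call among 22 genes of hypoxia and vascular growth. Astrocyte markers as such had 0 calls in limma among 20 genes (3 with an unadjusted p under 0.05) and a median of −0.02, with list means of 11.08 to 11.40 in CIE and 10.96 to 11.38 in Ctrl mice.

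Few genes of synapses and channels were called at this harvest, as among all genes (1.64%). Lists of this size would hold few or no calls at that share. Limma called 0 of 18 AMPA and kainate receptor genes (4 with an unadjusted p under 0.05), 0 of 17 genes of NMDA receptors and their scaffolds (3), 0 of 12 of metabotropic glutamate receptors and Homer proteins (2), 0 of 23 calcium and sodium channel genes (2), 0 of 25 genes of vesicle release (2), 0 of 26 neuropeptide genes (1) and 0 of 14 opioid and endocannabinoid genes (2). Of 15 genes of GABA signalling 1 was lower, Gabra2, a receptor subunit linked to the sedative action of many drugs. It was 9.06, 9.14 and 9.18 in CIE and 9.03, 9.56 and 9.76 in Ctrl mice (−0.38 ± 0.09, adjusted p = 0.00879), with a Ctrl mouse below all CIE mice, and the difference was larger in the block fit (−0.47, 0.00273). Among potassium channels the leak channel Kcnk2 was higher (0.35 ± 0.08, 0.00465), 9.90 to 10.33 against 9.61 to 9.89, and so was Kcnk6, of the same family, outside that list (0.60 ± 0.11, 0.000491). Nrtn, a ligand of the GDNF family, rose by 0.43 ± 0.09 (0.00436), and Bmp4, a growth factor made by oligodendrocyte precursors, by 0.54 ± 0.12 (0.00467). Kcnk2 (0.0336), Nrtn (0.0143) and Bmp4 (0.0118) did not pass in the block fit, and Kcnk6 did (0.00855). Limma also called 0 of 54 genes of oxidative phosphorylation (5 with an unadjusted p under 0.05) and 0 of 36 ribosomal protein genes (3).

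**Figure D4:**
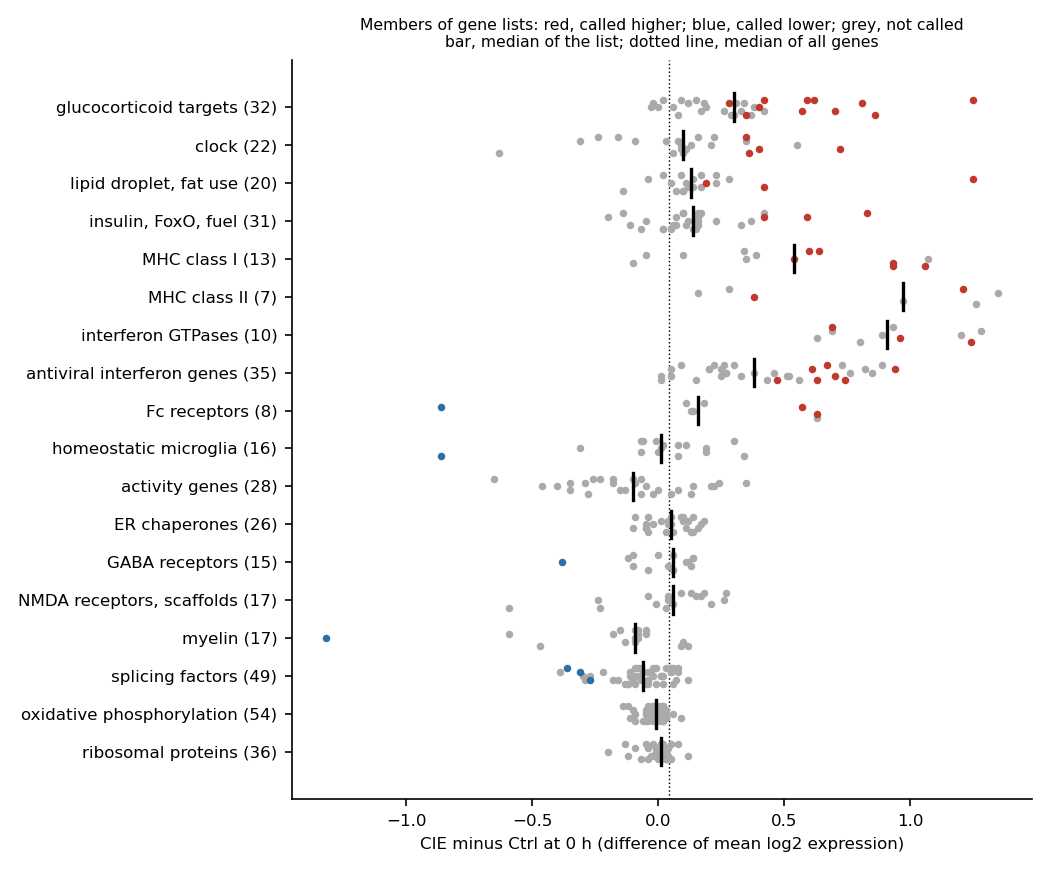
Each point is 1 gene of a list, placed by its CIE minus Ctrl difference of mean log2 expression at 0 h, red where called higher, blue where called lower and grey where not called, with the number measured in brackets, a bar at the list's median and a dotted line at the median of all genes (0.042). Interferon and MHC lists have medians well to the right of the dotted line, and those of oxidative phosphorylation (−0.01) and ribosomal proteins (0.01) lie near 0.

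Some of the lowest genes mark brain regions next to hippocampus and followed single Ctrl mice. Shox2, a homeobox gene of thalamus and midbrain, was 7.98, 6.35 and 6.44 in Ctrl mice 2, 12 and 20 and 3.86 to 4.48 in the other Ctrl mice, beside 3.94 to 4.38 in CIE mice. The same Ctrl mice were highest for Otx2, a homeobox gene of midbrain and choroid plexus (7.23, 5.30 and 5.25, beside 3.51 to 4.28), for Irx2 (6.53, 5.85 and 5.64, beside 3.96 to 5.19) and for Gata3 (5.71, 4.51 and 4.42, beside 3.39 to 4.02). In CIE mice these genes kept within 3.56 to 3.87 for Otx2, 4.45 to 4.69 for Irx2 and 3.51 to 3.87 for Gata3. Irx2 differed by −0.80 ± 0.19 (adjusted p = 0.00777) and Gata3 by −0.71 ± 0.17 (0.00927), and neither passed in the block fit (0.0672 and 0.0503) or without Ctrl mouse 2 (0.0406 and 0.0302). The difference of Shox2 went from −1.43 to −0.94 (0.0357) without Ctrl mouse 2 and to −0.05 ± 0.16 (0.92) without Ctrl mice 2, 12 and 20, and that of Otx2 from −1.21 to −0.74 (0.0192) and −0.20 ± 0.15 (0.562). Pax7 (−0.51 ± 0.12, 0.00588), Pax3 (−0.41 ± 0.09, 0.00648) and Otx2os1 (−0.48 ± 0.10, 0.00248), chosen after their values were seen, were lower too, and in Pax7 the same 3 Ctrl mice were highest (5.20, 5.03 and 5.09, beside 4.16 to 4.64). Tcf7l2, abundant in thalamus, was 9.60, 8.62 and 8.59 in those mice and 6.60 to 7.19 in the other Ctrl mice, but CIE mice lay at 6.89 to 7.40 and the difference did not pass (−0.67 ± 0.26, 0.132). Among 14 genes of thalamus and habenula measured, Shox2 was the 1 call (7.14%, beside 1.64% of all genes). The median of that list was 0.03, and 8 members had a difference above 0. The part of tissue beyond hippocampus in the calls of other genes was not tested.

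A further set of lower genes belonged to chromatin, transcription and RNA processing. Zbtb7a, a zinc finger repressor, was 6.25, 7.04 and 7.77 in CIE and 7.56, 8.06 and 9.04 in Ctrl mice (−1.14 ± 0.27, adjusted p = 0.00709), and Zbed6, a transposon-derived repressor of Igf2, was 6.85, 7.40 and 8.12 and 8.22, 8.47 and 8.79 (−1.08 ± 0.25, 0.00552). CIE mouse 57 was the lowest in both, and only Zbed6 separated the groups. Dpf1, a neuronal subunit of the BAF chromatin remodelling complex, was lower by −0.50 ± 0.12 (0.00711), the 1 call among 24 remodelling genes, and the histone demethylase gene Kdm6b by −0.44 ± 0.11 (0.00881). Of 36 genes that modify histones or DNA, 2 were higher and 1 (Kdm6b) lower (8.33% called, beside 1.64% of all genes). The histone deubiquitinase gene Usp22 rose by 0.27 ± 0.05 (0.000441), also in the block fit (0.00755), and the methyl-DNA reader Mbd2 by 0.26 ± 0.05 (0.00297). Mtr, which makes methionine for methylation, had a difference of −0.67 ± 0.15 (0.00611), and Hira, a histone chaperone chosen after its values were seen, one of −0.59 ± 0.14 (0.00991). Each of the 6 lower genes named here lost its call in the block fit. Of 49 splicing factors 3 were lower and 0 higher, among them the kinase gene Clk4 (−0.27 ± 0.06, 0.00761), 9.84 to 10.11 in CIE and 10.08 to 10.47 in Ctrl mice. Gjc3, a connexin gene of oligodendrocytes, was 5.21, 5.74 and 6.02 against 6.28, 6.89 and 7.74, without overlap, and did not pass in the block fit (0.0221). It was the 1 call among 17 myelin genes, of which 3 had a difference above 0, at a median of −0.09. Means of that list were 9.50 to 9.71 in CIE mice and 10.16, 9.94, 9.76, 10.02, 9.34 and 9.50 in Ctrl mice 2, 12, 20, 38, 56 and 64, and Mbp differed by −0.08 ± 0.06 (0.461).

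The kinds of probe set behind the higher and lower calls are given here as a description. Of the 413 probe sets called higher (0.917% of 45037), 231 (55.9%) were the probe set chosen for their gene, and of the 452 called lower (1.0%) 68 (15.0%) were. Among the lower ones 240 (53.1%, beside 32.2% of the higher) were a further probe set of a gene and 136 (30.1%, beside 7.99%) had no gene symbol, and over all probe sets those shares were 37.2% and 20.3%. The median level was 7.71 for the higher, 6.36 for the lower and 6.62 for all probe sets. For 224 genes with a lower further probe set the median difference of that probe set was −0.73 and that of the gene's chosen probe set −0.02, with 6 of the latter called lower. For 118 genes with a higher further probe set the medians were 0.38 and 0.17, and 30 of the chosen probe sets were called higher. Differences beyond 2-fold were seen in 98 lower and 18 higher probe sets. Malat1, a nuclear RNA, had no overlap between groups for its chosen probe set (11.33 to 11.50 in CIE and 11.52 to 11.68 in Ctrl mice) and a difference of −0.18 ± 0.06 that did not pass (0.059).

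Matches to the elements printed above were counted in all promoters. The interferon element was found in 17 of the 191 higher genes with a promoter in RefSeq (8.9%), in 3 of 55 lower genes (5.45%) and in 3.02% of the 14452 measured genes with a promoter, all over 300 bases (250 before to 50 after the start). Among list members it stood in 6 of 7 GTPases and 12 of 25 antiviral genes, including Irgm1 and Irgm2 as printed above and the called genes Rsad2, Trim21 and Trim30a. In 2 lists without a call it stood in 4 of 31 ribosomal protein genes (12.9%) and 2 of 43 genes of oxidative phosphorylation (4.65%). The E-box CACGTG was found in 9.95% of higher, 3.64% of lower and 9.02% of measured genes. Among list members it stood in 26.3% of clock genes (5 of 19), 28.6% of activity genes and 21.4% of glucocorticoid targets. Ciart and Klf15, 2 of the called genes, carried it 3 times each. The glucocorticoid element, in 0.353% of measured genes, was found in 2 higher genes (1.05%), Txnip and Map3k6, in 1 lower gene (1.82%) and in 2 of 28 glucocorticoid targets. The cyclic AMP response element TGACGTCA was found in 2.62% of higher, 7.27% of lower (4 of 55) and 2.68% of measured genes. Over all 27025 promoters the shares were 3.49%, 7.24%, 0.463% and 1.88% in the order given. These are matches of letters and no test of binding.

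The later harvests were made from other CIE and Ctrl mice. Of the 231 genes higher at 0 h, 54 (23.4%, and 18.0% of the 300 higher at 8 h) were also called higher at 8 h, 0 at 72 h and 10 at 7 d (4.33%, and 6.25% of 160). The genes called higher at these harvests were 1.65%, 0.0% and 0.879% of all genes, and those called lower 0.66%, 0.0055% and 0.165%. Of the 68 lower genes, 5 were called lower at 8 h (7.35%, and 4.17% of 120), 0 at 72 h and 4 at 7 d (5.88%, and 13.3% of 30), and no gene was called in the opposite direction. The median difference of the 231 genes went from 0.39 at 0 h to 0.16, 0.01 and 0.14 at 8 h, 72 h and 7 d, and that of the 68 genes from −0.43 to −0.14, −0.03 and −0.05. At 7 d the genes again higher were Ms4a6b, Lair1, Parp9, Ccl5, Epsti1, Trim12c, Tmem140, Hipk1, Gtf2a1 and Tmem250-ps, and those again lower were Zbed6, Dpf1, Pfdn1 and Gm16794. Zbed6 had a difference of −1.15 there (adjusted p = 0.00489) and Dpf1 one of −0.74 (0.000547).

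The change of the CIE effect between harvests was tested too. The 0 h effect was called different from that at 8 h for 6 genes (0.033% of those tested), from that at 72 h for 5 (0.0275%) and from that at 7 d for 12 (0.066%). Dbp was in all 3 sets. It was higher by 0.36 at 0 h and had a difference of −0.21 at 8 h (change 0.57 ± 0.08, adjusted p = 8.96e-05). Fos, lower at 0 h, had a difference of 0.78 at 8 h (change −2.11 ± 0.31, 0.000495). Plin4 exceeded its 72 h effect by 1.29 ± 0.19 (0.00137), Txnip by 0.90 ± 0.16 (0.00775), Fcgr3 by 0.74 ± 0.13 (0.00434) and Erap1 by 0.64 ± 0.11 (0.00641). Against 7 d, Cdkn1a had a change of 0.97 ± 0.18 (0.00502), Ciart of 0.75 ± 0.12 (0.00128), Fcrls of −1.22 ± 0.16 (4.84e-05), Vegfa of −0.70 ± 0.12 (0.00224) and Wif1 of −0.98 ± 0.18 (0.00478). Arntl had a change of −0.57 ± 0.10 (0.00502), with a difference of −0.16 at 0 h and 0.41 at 7 d.

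**Figure D5:**
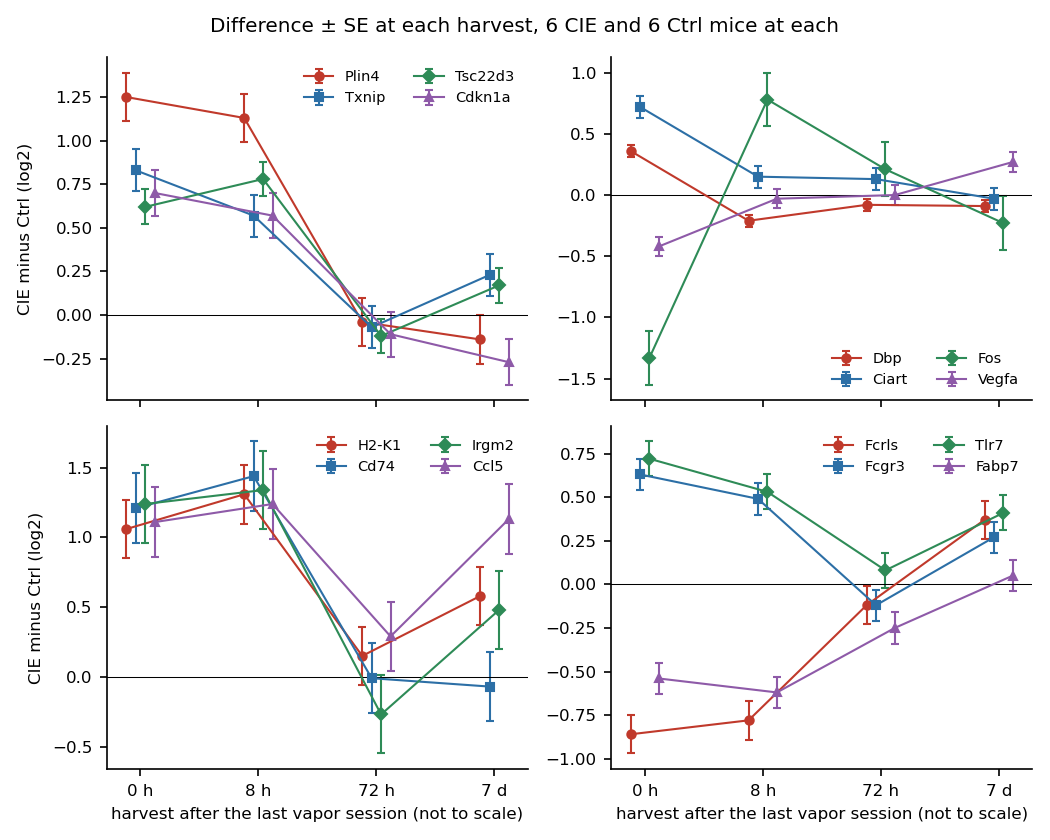
CIE minus Ctrl difference of mean log2 expression ± SE (vertical axis) at 0 h, 8 h, 72 h and 7 d after the last session (horizontal axis, not to scale) for 16 genes, each from 6 CIE and 6 Ctrl mice that differ between harvests, with lines to guide the eye. Plin4, Txnip, Cd74 and H2-K1 are above 0 at 8 h and between −0.07 and 0.15 at 72 h, while Dbp and Fos change sign between 0 h and 8 h.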

How the data were processed

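Hippocampal RNA of single mice was hybridised to Affymetrix Mouse Genome 430 2.0 arrays. The values deposited by the authors are log2 expression, made by RMA background correction and quantile normalization within each hybridization batch, quantile normalization over all 48 arrays and ComBat for the hybridization batch, so that part of a difference tied to a batch could have been removed with it. The labels and methods name no version of these tools. The batches were not labelled, and the 6 sets of arrays used as a block were found from exactly equal values (within 1e-08) that at least 5 probe sets of 2 arrays shared.

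CIE was set against Ctrl within each harvest, and the 0 h effect against each later one, by limma 3.58.1 in R 4.3.3, on all 45037 probe sets and 8 groups, so that all 48 arrays gave 1 estimate of the spread. Benjamini-Hochberg adjustment ran over all probe sets, and a call needs an adjusted p of 0.01 or less. The fit was also run on simulated data with changes of known size and independent noise. These data held no array sets and no differences in dissection, so they do not test for them. A gene is given by its probe set with the highest mean among 34945 with a single symbol, which leaves 18193 genes. Probe sets whose names end in _x_at were chosen only where a gene had no other. The 932 probe sets with several symbols and the 9160 with none are counted but not named. The number of mice limits the precision.

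The genes and the 71 lists were chosen with earlier results of these data known. The text names, where it names any, the 15 highest and 15 lowest called genes, up to 8 called, the first 4 and 2 further most changed members of each list, up to 8 genes of each change between harvests and up to 10 called again later, with values per mouse for up to 3 genes of a list. Outside this rule, and chosen after their values were seen, are Acacb, Aldh2, Alox5ap, Cpt1a, Epsti1, Fabp7, Fkbp5, Gm16794, Gsdmd, Gtf2a1, Hipk1, Hira, Ncf1, Nfil3, Otx2os1, P2ry6, Pax3, Pax7, Pfdn1, Sgk1, Tmem140, Tmem250-ps, Tnf, Trim12c, Trim30d, Trim34a and Wif1, as well as some of the values per mouse. Promoters were the first listed start of each gene in RefSeq (GRCm38.p6). Alternatives were an FDR of 0.05, the arrays of the compared harvests alone, repeated quantile normalization, centred medians, a mean above 5, the array sets as a block, a trended and robust eBayes, the mean over a gene's probe sets and the omission of each mouse. The joint omission of Ctrl mice 2, 12 and 20 was added after seeing the data.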

Additional observations from a re-analysis of the deposited data

Results flagged for a closer look

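Among 262 groups of 6 mice (131 named genes, each in the CIE and the Ctrl group of 0 h), 11 (4.2%) held a mouse whose gap to the nearest other mouse, divided by the range of the group, exceeded Dixon's critical ratio for 6 values, which chance gives in about 1 in 20 groups. Ctrl mouse 56 was far below the others for Acsl3 (0.670), Cpt1a (0.697) and Ifngr1 (0.669). Ctrl mouse 20 was far above for Ccl5 (0.658) and Rtp4 (0.636), and Ctrl mouse 2 far below for Lair1 (0.651) and Trim30d (0.683). The others were Ctrl mouse 38, low for Usp2 (0.680), CIE mouse 43, high for Adh5 (0.636), CIE mouse 57, low for Fabp7 (0.728), and CIE mouse 11, low for Hif3a (0.689).

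The CIE effect at 0 h differed from that at a later harvest, by limma's test of the change at an FDR of 0.01, for 13 of the named genes. Against 8 h the changes on the log2 scale were 0.57 for Dbp and −2.11 for Fos. Against 72 h they were 0.45 for Dbp, 0.64 for Erap1, 0.74 for Fcgr3, 1.29 for Plin4 and 0.90 for Txnip. Against 7 d they were −0.57 for Arntl, 0.97 for Cdkn1a, 0.75 for Ciart, 0.46 for Dbp, −1.22 for Fcrls, 1.38 for Plin4, 0.53 for Srxn1, −0.70 for Vegfa and −0.98 for Wif1. The part of the different mice of each harvest in these changes was not tested.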

How the results depend on the processing

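The number of probe sets called at 0 h (865) moved by more than 1.5 times under 4 settings. It was 2629 at an FDR of 0.05, 182 with the array sets as a block, 188 with Ctrl mice 2, 12 and 20 left out together and 42 with the spread taken from the 12 arrays alone, which leaves fewer arrays to estimate it. Leaving out 1 mouse gave 261 to 1508. The count was 354 without Ctrl mouse 2 and 538 without Ctrl mouse 56, and without CIE mice 11, 19, 43, 57 and 72 it was 1508, 390, 429, 261 and 552. Changes of the effect against 8 h (15 probe sets) became 169 at an FDR of 0.05, 3 with the arrays of the compared harvests alone, 5 with the block, 7 without Ctrl mice 2, 12 and 20, and 8 to 26 without 1 mouse. Against 72 h (16) they became 156, 28 with a mean above 5, 1 with the block, 4 without those 3 mice, and 5 to 48 without 1 mouse. Against 7 d (27) they became 77 at an FDR of 0.05, 8 with the arrays of the compared harvests alone and 16 to 37 without 1 mouse. The causes were not tested. Of the 95 named genes called at 0 h, none changed direction where it was fitted (10 had no value with a mean above 5), 29 kept their call with the block, 33 without Ctrl mice 2, 12 and 20, 15 on the 12 arrays alone and 73 with the mean over a gene's probe sets. A mean above 5, reached by 32437 of the 45037 probe sets, gave 815 calls at 0 h. No paired analysis was possible because the labels give every mouse a number of its own, and the block rests on the inferred array sets, which hold 1 CIE and 1 Ctrl mouse of 0 h together in 5 sets.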
